A study of Mus musculus with 6 samples.

Results

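Genomic imprinting silences the copy of a gene that came from one parent, so that only the maternal or only the paternal copy is read. Many imprinted genes set how much embryos and young animals grow, with paternally expressed genes such as Igf2 promoting growth and maternally expressed genes such as Grb10 and Cdkn1c restraining it. Several of them are active in fat, where Dlk1 marks and maintains preadipocytes, Mest is tied to the enlargement of adipocytes and Nnat is read in mature adipocytes.

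The 10 genes considered here are Nnat, Mest, Peg3, Dlk1, Plagl1, Igf2 and Ndn, which are paternally expressed in most tissues, and Grb10, Cdkn1c and H19, which are maternally expressed in most. They were taken as all probe sets whose annotation gives 1 of these symbols and no other. That rule found 26 probe sets for 9 genes, out of 45037 probe sets and 18193 genes. The probe set for H19 is annotated to Mir675 as well, so H19 has no value here. Transcripts were measured in the epididymal fat pad of male mice aged 10 weeks on a mixed C57BL6;129Sv background, with 3 Pparg ldi/+ mice and 3 litter-matched wild-type mice, 1 mouse per Affymetrix MOE430v2.0 array. PPAR gamma, the product of Pparg, is a nuclear receptor without which adipocytes do not form. The Pparg ldi/+ mice carry 1 copy of an allele called ldi, which the labels link with lipodystrophy, and no other allele or treatment is named for either group. The genes were selected on their genotype differences on these arrays: the large difference of Nnat and that of Grb10 were already known. The differences of the 9 genes are therefore given as descriptions with their errors and without a p-value. Where a gene is said to be past the threshold of the fit across all genes, or not, this describes the fit and is not independent evidence. The lists of other genes below were also chosen with earlier results of these data known. Their shares and adjusted p-values are descriptions of the fit too. The array reads both parental copies together, and nothing here measures which one was active.

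The deposited signals had trimmed means of 201 to 236 per array and were scaled to a common trimmed mean of 500. Log2 differences below are Pparg ldi/+ minus wild type, of log2(scaled signal + 32), and folds come from them. The added 32 makes differences of dim genes look smaller. Pparg was at 1.35 below wild type on that scale (log2 difference -1.35, SE 0.084). Adipocyte markers summed to 156559 to 175976 in wild type and 77590 to 86690 in Pparg ldi/+, and 8 of 9 fell. The 10 macrophage markers all rose, from a sum of 36649 to 46919 to one of 89831 to 92823. Stromal progenitor markers summed to 38994 to 43720 and 43726 to 47696, of which 2 of 10 rose and 4 fell. Endothelial markers fell in 6 of 7, mesothelial markers fell in 4 of 7, and 2 of 3 tested lymphocyte markers rose. In a tissue of mixed cells, fewer cells of a type and less RNA per cell cannot be told apart. Epididymal epithelium markers, 14 on the array, summed to 1031 to 1828 in wild type and to 25059, 34482 and 1051 in Pparg ldi/+ arrays 1, 2 and 3. Arrays 1 and 2 thus stood apart, and values in which array 3 stands alone for Pparg ldi/+ are given for the 9 genes and for other genes called. No marker of these lists was at 0 on any array (0 values), and what part the cell makeup had in the results was not tested.

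The stretches around the start sites of 4 of these genes are shown because Nnat, Peg3 and Plagl1 hold probe sets with the largest differences, for Plagl1 in probe sets other than the one fitted, and because Ndn shares a sequence element with Nnat. Each runs from 250 bases before to 50 after an annotated start, is read on the gene's own strand and comes from RefSeq, build GRCm38.p6. The windows are chr2:157559828-157560127 on the plus strand for Nnat, chr7:62348027-62348326 on the plus strand for Ndn, chr7:6730370-6730669 on the minus strand for Peg3 and chr10:13090582-13090881 on the plus strand for Plagl1. Capitals mark matches to the 5 motifs named in the next paragraph.
Nnat: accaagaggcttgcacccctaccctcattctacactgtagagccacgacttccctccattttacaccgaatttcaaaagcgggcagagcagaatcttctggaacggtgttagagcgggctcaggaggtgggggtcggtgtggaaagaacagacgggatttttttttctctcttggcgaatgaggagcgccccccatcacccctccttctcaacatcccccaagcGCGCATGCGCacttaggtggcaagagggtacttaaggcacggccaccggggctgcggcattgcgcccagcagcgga
Ndn: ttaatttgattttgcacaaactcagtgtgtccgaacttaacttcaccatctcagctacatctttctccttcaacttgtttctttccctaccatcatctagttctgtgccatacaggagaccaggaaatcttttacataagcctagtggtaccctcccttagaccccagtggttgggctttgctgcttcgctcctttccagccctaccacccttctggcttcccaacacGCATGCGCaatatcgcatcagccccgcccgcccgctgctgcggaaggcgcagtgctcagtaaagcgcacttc
Peg3: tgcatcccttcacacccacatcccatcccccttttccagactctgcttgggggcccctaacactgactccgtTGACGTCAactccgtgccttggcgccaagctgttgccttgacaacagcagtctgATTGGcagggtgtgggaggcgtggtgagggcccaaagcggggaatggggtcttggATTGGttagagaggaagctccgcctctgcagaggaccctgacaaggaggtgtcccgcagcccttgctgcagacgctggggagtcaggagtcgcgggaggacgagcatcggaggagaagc
Plagl1: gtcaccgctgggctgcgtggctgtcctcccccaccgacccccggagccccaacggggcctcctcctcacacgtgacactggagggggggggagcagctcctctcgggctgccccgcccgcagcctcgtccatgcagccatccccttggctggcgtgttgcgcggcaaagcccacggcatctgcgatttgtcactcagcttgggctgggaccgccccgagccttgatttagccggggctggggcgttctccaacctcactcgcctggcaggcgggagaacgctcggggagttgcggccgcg

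The promoter table held 14 start sites for 8 of the 10 genes. Motifs were searched on both strands, and were chosen after the sequences had been seen. The core of the NRF1 motif, GCATGCGC, stands in 2.71% of the 32851 promoters of the table. It is present in Nnat, with 2 matches that overlap because the element is nearly palindromic, and in Ndn, with 1 match that begins at position -22 from the start. These genes have the largest and one of the smallest differences among the 9. The cyclic AMP response element TGACGTCA, in 1.79% of promoters, was found in Peg3 at position -178, and the CCAAT box, in 37.4%, was found 2 times in Peg3 and 1 time in an Igf2 promoter. The half-site AGGTCA, which nuclear receptors of the PPAR kind bind, stands in 16.3% of promoters and occurred in 1 of the 14 windows, again at Igf2. The TATA box letters TATAAA, in 13.6% of promoters, were in none (0). The windows held 2 to 45 CpG dinucleotides, against a median of 7 over the table, with 17 for Nnat, 26 for Plagl1 and 45 at one Grb10 start. A match is a description of letters and says nothing of binding.

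Across the 9 genes, 6 were lower and 1 higher in Pparg ldi/+ fat past the threshold that the fit across all genes uses (limma, Benjamini-Hochberg adjusted p under 0.05), and 2 were not past it. The background is large, as 32.7% of the 11201 genes tested were called, 16.4% lower and 16.3% higher. Because the genes were chosen with this comparison in view, nothing is read from their share. In the probe set that represents each gene, the 3 mice of each genotype did not overlap in 7 genes lower and 1 gene higher in Pparg ldi/+. Over all genes tested, 24.0% were lower and 23.6% higher without overlap, 47.6% in all. The paternally expressed genes split into 4 lower, 1 higher and 2 not past the threshold, and the 2 maternally expressed genes with a value were both lower. With array 3 alone, each of the 9 genes kept the sign of its difference. All 9 passed the filter on dim signals, a log2 mean of 7.46; Plagl1 did so through its wild-type values, since its mean in Pparg ldi/+ was 7.13.

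**Figure D1:**
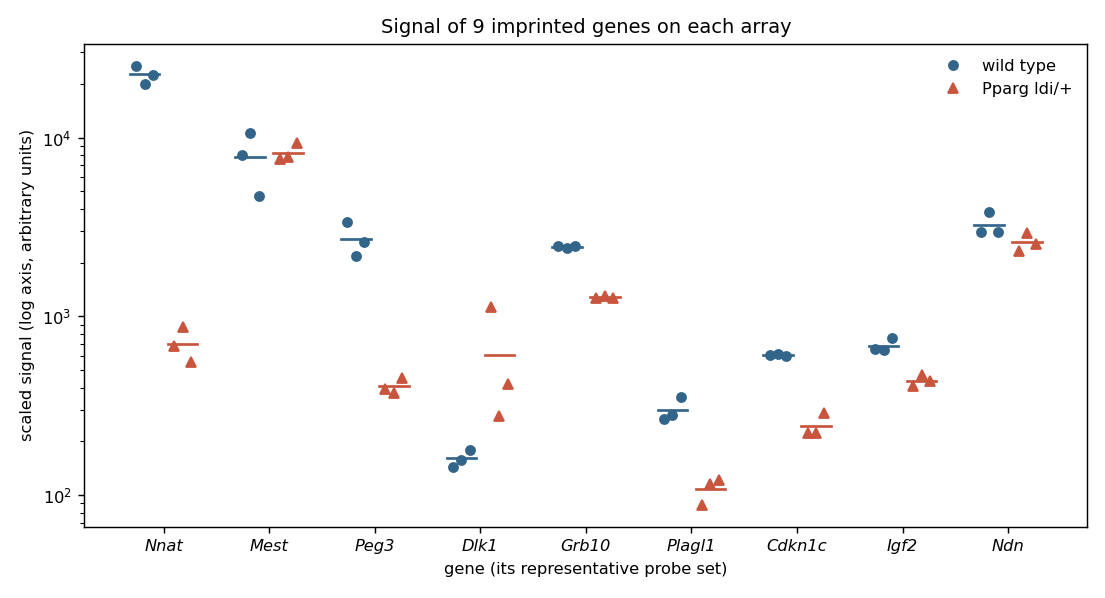
Scaled signal (log axis) of the representative probe set of each of 9 imprinted genes on the 3 wild-type arrays (blue circles) and the 3 Pparg ldi/+ arrays (red triangles), with horizontal lines at the means. Nnat shows the widest gap, from a mean of 22555 to 704, while the symbols of Mest overlap; levels of different genes are not comparable because each has its own probes.

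Nnat encodes neuronatin, a small membrane proteolipid of the endoplasmic reticulum. Its signal was 25160, 20034 and 22472 on wild-type arrays 1 to 3 and 683, 872 and 557 on the Pparg ldi/+ arrays. Every Pparg ldi/+ array lay far below every wild-type array. The means were 22555 ± 2564 and 704 ± 158 (SD, n = 3), a log2 difference of -4.96 (SE 0.151). Only 2 of the 11201 genes tested differed by more in the downward direction. The large difference of Nnat was known when the genes were selected, so this rank is only a description. With array 3 alone the difference was -5.25.

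Peg3 encodes a large zinc finger protein of the imprinted domain that bears its name. Its brightest probe set read 3364, 2182 and 2610 in wild type and 390, 375 and 452 in Pparg ldi/+. The wild-type arrays spread more than the Pparg ldi/+ arrays, and the groups did not overlap. The log2 difference was -2.63 (SE 0.155), a 6.2-fold lower signal, and -2.48 with array 3 alone. Another 2 bright probe sets of Peg3 were lower too, at -2.64 and -3.21. The latter passed the filter through its wild-type values, since its log2 mean in Pparg ldi/+ was 6.34. The remaining 2 were dim in both groups, with wild-type means of 20.1 and 5.53, and differed by -0.45 and -0.12. They lower the mean of the 5 probe sets to a log2 difference of -1.81.

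Plagl1, also called Zac1, encodes a zinc finger transcription factor that restrains proliferation and is known to act on other imprinted genes. Its 3 probe sets disagreed in size but not in direction. The brightest, of a type that can cross-hybridise (suffix x_at), read 9342, 10167 and 10497 in wild type and 739, 671 and 675 in Pparg ldi/+, 13.8-fold lower at a log2 difference of -3.79. Another read 527, 431 and 497 against 9.97, 7.92 and 7.63, at -3.67. The remaining one, which represents the gene in the fit because x_at probe sets are passed over where another exists, read 268, 280 and 356 against 88.3, 115 and 122, at -1.24 (SE 0.191). No Pparg ldi/+ value reached the lowest wild-type value in any of the 3. The gene's difference therefore depends on the probe set read: -1.24 as fitted, -2.90 as the mean of the 3, and -3.79 with x_at probe sets allowed, an alternative chosen after the values were seen. With array 3 alone the fitted probe set was at -1.11.

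Cdkn1c encodes p57Kip2, which inhibits cyclin-dependent kinases and arrests the cell cycle. It read 607, 615 and 599 in wild type and 222, 224 and 287 in Pparg ldi/+. The 3 wild-type mice were nearly alike, and all Pparg ldi/+ mice were below them. The means were 607 ± 8.28 and 244 ± 37.2 (SD, n = 3), and the log2 difference was -1.22 (SE 0.132), or -1.0 with array 3 alone.

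Grb10 encodes an adaptor protein that binds the insulin and IGF1 receptors and restrains their signalling. Its brightest probe set read 2483, 2423 and 2471 in wild type and 1269, 1293 and 1267 in Pparg ldi/+. Both groups were tight and apart, and the signal was 1.9-fold lower at a log2 difference of -0.93 (SE 0.072), or -0.94 with array 3 alone. The other probe sets were dimmer, at -0.70 and -0.51. In the latter the groups overlapped, with 356, 260 and 335 against 270, 162 and 215.

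Igf2 encodes insulin-like growth factor 2. Its brighter probe set read 655, 645 and 755 in wild type and 406, 471 and 434 in Pparg ldi/+. The groups did not overlap, and the log2 difference was -0.61 (SE 0.114). The second Igf2 probe set was too dim for the filter and overlapped, at 81.0, 42.6 and 45.9 against 13.8, 61.1 and 49.8. With the mean of both probe sets the difference was -0.46 and no longer past the threshold, which was also missed with array 3 alone, at -0.62.

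Dlk1 encodes a transmembrane protein, known as Pref-1, that holds preadipocytes back from differentiation. It was the only one of the 9 to be higher past the threshold. It read 144, 158 and 180 in wild type and 1129, 276 and 420 in Pparg ldi/+. All Pparg ldi/+ arrays lay above all wild-type arrays, and array 1 lay far above arrays 2 and 3. The log2 difference was 1.5 (SE 0.411), 0.96 without Pparg ldi/+ array 1 and 1.23 with array 3 alone. Leaving out wild-type array 1 or 2 ended the call, at 1.44 and 1.5. A second Dlk1 probe set was dim and went the other way, with means of 33.0 ± 10.0 for wild-type mice and 19.8 ± 10.3 for Pparg ldi/+ mice (SD, n = 3).

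Mest encodes an enzyme of the alpha/beta-hydrolase fold. It read 7965, 10626 and 4705 in wild type and 7626, 7811 and 9319 in Pparg ldi/+. The wild-type mice spanned a 2.26-fold range that enclosed all 3 Pparg ldi/+ values. The log2 difference was 0.16 (SE 0.249, 95% confidence interval -0.41 to 0.73), and it turned to -0.16 without wild-type array 3 and was 0.34 with Pparg ldi/+ array 3 alone. The interval leaves room for a moderate change in either direction.

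Ndn encodes necdin, a protein of the MAGE family that interacts with E2F factors and restrains proliferation. Its representative probe set read 2950, 3840 and 2959 in wild type and 2325, 2941 and 2548 in Pparg ldi/+. The Pparg ldi/+ values lay just below the wild-type values. The log2 difference was -0.31 (SE 0.126), which did not pass the threshold, and -0.34 with array 3 alone. The 4 other probe sets above the filter differed by -0.19 to -0.41, and 3 dimmer ones by -0.24 to 0.07. In all of these other probe sets the groups overlapped.

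**Figure D2:**
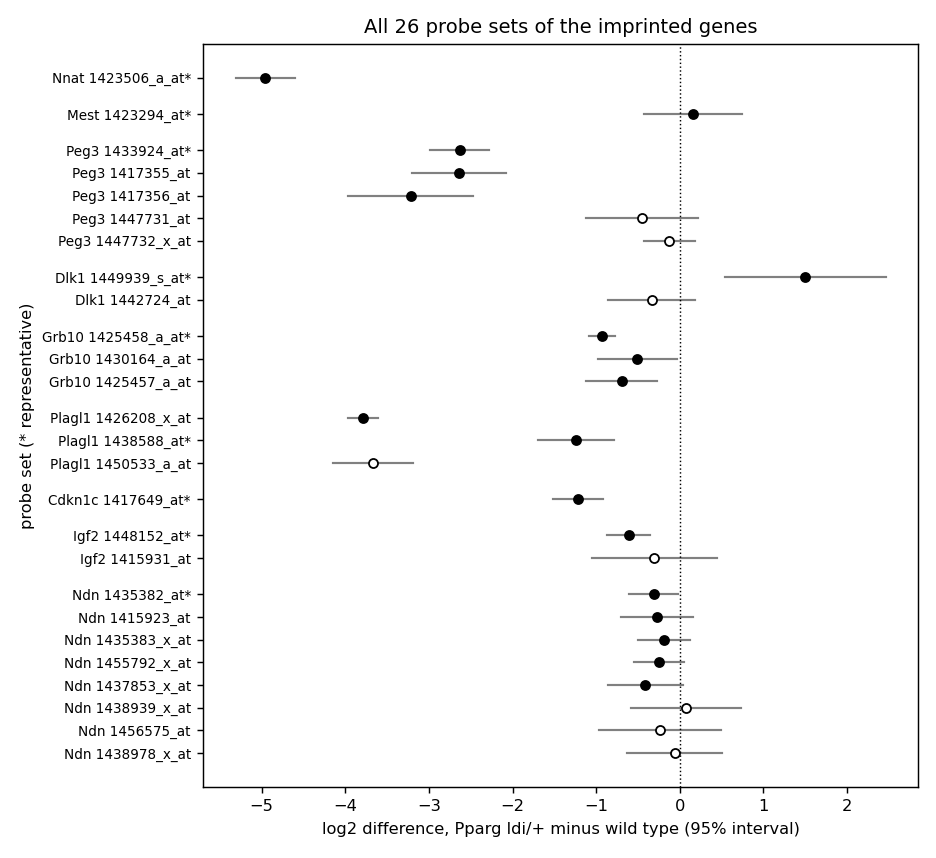
Log2 difference (Pparg ldi/+ minus wild type) of all 26 probe sets with 95% confidence intervals; filled points are brighter than the filter, open points dimmer, and an asterisk marks the probe set that represents the gene. The 3 probe sets of Plagl1 lie at -3.79, -1.24 and -3.67, and the 8 of Ndn lie between -0.41 and 0.07.

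The spread among mice of 1 genotype, read in the probe set that represents each gene, also differed between these genes. The gene choice rested on genotype differences, and whether spread entered into it is not known. The SD of log2 values over the 3 wild-type arrays was 0.59 for Mest, above that of 97.8% of the 11201 genes, whose median was 0.15. It was 0.02 for both Grb10 and Cdkn1c, above 1.26% and 1.32% of genes. For Grb10 this holds for the probe set read. One of its dimmer probe sets spread more in wild type, with log2 values of 8.60, 8.19 and 8.52. The other had 8.47, 8.47 and 8.56. Among the Pparg ldi/+ arrays the SD was 0.98 for Dlk1, above 99.6% of genes with a median of 0.12, and 0.31 for Nnat, above 90.3%. Mest had an SD of 0.16 there, above 64.9% of genes. With 3 mice a group these are descriptions, and whether the spread differs between genotypes was not tested.

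**Figure D3:**
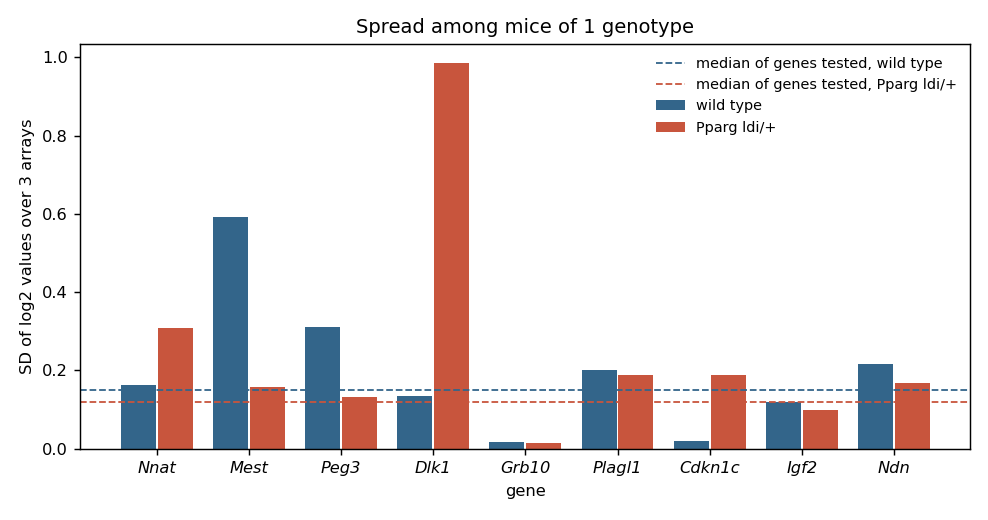
SD of log2 values over 3 arrays for the representative probe set of 9 imprinted genes in wild type (blue) and Pparg ldi/+ (red). Dashed lines mark the median SD of all genes tested, 0.15 and 0.12. Mest stands out among wild-type mice at 0.59 and Dlk1 among Pparg ldi/+ mice at 0.98.

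Genes that share an imprinted domain with these were read from a list of 39, of which 34 were on the array under a single symbol and 21 were bright enough to be tested. Of the 21, 3 fell and 1 rose, or 19.05% against 32.7% of all genes tested. As all lists were chosen with earlier results known, nothing is read from this share or from those of the lists below. The median log2 difference was -0.11 against -0.004 for all genes tested. Of the 6 domains with a tested neighbour, those of Nnat, Cdkn1c and Ndn held at least 1 past the threshold, and those of Mest, Dlk1 and Plagl1 held none (0). With array 3 alone, the 4 called neighbours, Blcap, Osbpl5, Dhcr7 and Atp10a, kept the sign of their differences.

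Blcap, a gene that Nnat lies within on the opposite strand, fell with Nnat. It read 3694, 3793 and 4402 in wild type and 1291, 1379 and 1343 in Pparg ldi/+, with no overlap. The log2 difference was -1.54 (SE 0.088, limma adjusted p = 7.39e-06), a 2.91-fold lower signal where Nnat was 31.0-fold lower, and lower in 3 of 3 mice. It was -1.54 with array 3 alone.

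Meg3, the maternally expressed long noncoding RNA of the Dlk1 domain, did not pass (log2 difference 0.16, SE 0.115, limma adjusted p = 0.316). It read 1826, 1638 and 1458 in wild type and 1694, 1740 and 2090 in Pparg ldi/+. The groups thus overlapped in this probe set, while those of Dlk1 did not overlap in its representative one. The 11 probe sets of Meg3 differed by -0.59 to 0.39. Among them, those at -0.59 and -0.38 were lower in Pparg ldi/+ and a dim one at 0.29 was higher, each without overlap. Rian and Mirg, noncoding RNAs further along the same domain, were at 0.06 and 0.17 and did not pass either.

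In the Cdkn1c domain, 11 of 13 listed genes were tested, and 9 did not pass. Osbpl5, a lipid transfer protein gene, fell 1.62-fold (log2 -0.70, SE 0.186, limma adjusted p = 0.0202). Its call ended without wild-type array 1 or 2 (-0.62 and -0.67), without Pparg ldi/+ array 1 or 2 (-0.56 and -0.62) and with array 3 alone (-0.29). Dhcr7, which codes for the last enzyme of cholesterol synthesis and is counted in this domain although 11 protein-coding genes lie between it and Cdkn1c, went against Cdkn1c. It rose 2.49-fold, from 436 ± 74.4 to 1141 ± 226 (SD, n = 3; log2 1.32, SE 0.172, limma adjusted p = 0.000558), and was at 1.51 with array 3 alone. Kcnq1ot1, the paternally expressed antisense RNA of the domain, was at -0.22 and did not pass.

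Near Ndn, Atp10a, a phospholipid transporter gene, fell 1.84-fold (log2 -0.88, SE 0.204, limma adjusted p = 0.0107), and its 4 probe sets differed by -0.43 to -1.37. The call was lost with array 3 alone, at -0.89. Ube3a, the ubiquitin ligase gene of that domain, did not pass in the probe set read, at -0.12. Its 6 probe sets differed by -0.44 to 0.06, and in the one at -0.44 the groups did not overlap. Around Mest, Copg2, Klhdc10 and Klf14 were at 0.03, -0.20 and -0.14, and Phactr2 near Plagl1 was at -0.11; none of these passed (0 of 4). The listed neighbours of Peg3, Grb10 and Igf2 that were on the array were all too dim to be tested.

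**Figure D4:**
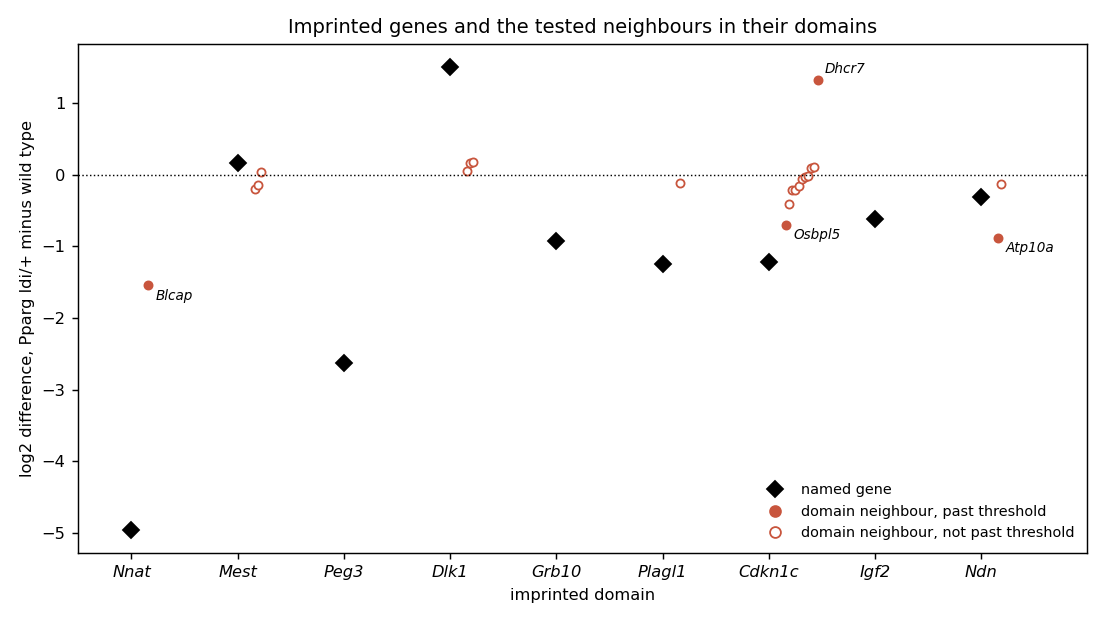
Log2 difference (Pparg ldi/+ minus wild type) of 9 imprinted genes (black diamonds) and of the tested genes in the same imprinted domain (red circles, filled where limma's adjusted p was under 0.05). Blcap lies below 0 beside Nnat at -1.54, Dhcr7 lies above 0 beside Cdkn1c, and most other neighbours lie near 0.

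Imprinted genes of other domains, a list of 34 with 21 tested, rose in 3 and fell in 4, or 33.3% against 32.7% of all genes tested, with a median of -0.01. Some of them are imprinted only in placenta or brain. Gatm, which codes for the first enzyme of creatine synthesis, rose 3.14-fold, from 412, 347 and 325 in wild type to 1330, 1140 and 1127 in Pparg ldi/+ (log2 1.65, SE 0.122, limma adjusted p = 2.56e-05). Ppp1r9a, which encodes the actin-binding protein neurabin, fell 1.94-fold (log2 -0.96, SE 0.127, limma adjusted p = 0.000615), and its 5 probe sets differed by -0.15 to -1.19. Pon3, a lactonase gene that neighbours it, fell 1.73-fold (log2 -0.79, SE 0.074, limma adjusted p = 8.78e-05). These 3 were also called with array 3 alone, at 1.57, -0.88 and -0.81.

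The 4 smaller calls among these imprinted genes did not pass the threshold with array 3 alone, where Sgce was at -0.47, Bcl2l1 at 0.39, Gnas at -0.18 and Impact at 0.35. Sgce, the epsilon-sarcoglycan gene, was at -0.49 (limma adjusted p = 0.0024), Bcl2l1, which encodes the survival protein Bcl-xL, at 0.41 (adjusted p = 0.00954), Gnas, the stimulatory G protein subunit, at -0.20 (adjusted p = 0.033) and Impact, a translation regulator, at 0.30 (adjusted p = 0.0257). Gnas lost its call without wild-type array 1 or any 1 Pparg ldi/+ array (-0.17 to -0.21), and Impact without wild-type array 1 or 3 or Pparg ldi/+ array 1 or 3 (0.26 to 0.30). With the mean of its 3 probe sets Impact turned to -0.19. Igf2r, which clears Igf2 from the cell surface, did not pass, at 0.16.

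Among relatives of the 9 genes, 8 were tested from a list of 10, of which 3 rose and 0 fell, or 37.5% against 32.7% of all genes tested. Grb14, the adaptor most like Grb10, rose from 1103, 1325 and 1269 to 2675, 3687 and 2004 (log2 1.12, SE 0.193, limma adjusted p = 0.00242), where Grb10 was lower. Cdkn1a, a kinase inhibitor of the same family as Cdkn1c, had a log2 difference of 0.87 (SE 0.277, limma adjusted p = 0.0407), but the groups overlapped, with 2562 the highest wild-type and 2485 the lowest Pparg ldi/+ value, and leaving out any 1 array other than wild-type array 2 ended the call, with differences of 0.57 to 0.98. Cdkn1b did not pass, at -0.13. Maged2, a MAGE family gene like Ndn, rose 1.86-fold (log2 0.89, SE 0.114, limma adjusted p = 0.000499). With array 3 alone Grb14 was at 0.69, Maged2 at 0.97 and Cdkn1a at 1.03, the last not past the threshold. Maged1 was at -0.17 and did not pass. Igf1 was at -0.18 and did not pass, and Dlk2, the relative of Dlk1, was at 0.89 and did not pass (adjusted p = 0.086).

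Among 19 tested partners of these genes, 6 fell and 3 rose, or 47.4% against 32.7% of all genes tested. The list was chosen with earlier results of these data known, so nothing is read from this share. The 3 listed for Grb10 fell in the probe set read. Irs1, the insulin receptor substrate, fell 4.01-fold from 2422, 2066 and 2914 to 640, 703 and 443 (log2 -2.0, SE 0.180, limma adjusted p = 7.2e-05). Nedd4, the ubiquitin ligase that binds Grb10, fell 1.71-fold (log2 -0.77, SE 0.062, limma adjusted p = 3.85e-05). Insr, the insulin receptor, fell 1.4-fold (log2 -0.49, SE 0.142, limma adjusted p = 0.0286), but the mean of its 3 probe sets was at -0.17 and did not pass, and the threshold was also missed without wild-type array 1 or 3 or Pparg ldi/+ array 1 or 3, at -0.41 to -0.48. Igf1r, the IGF1 receptor, which Grb10 also binds but which was listed for Igf2, was at 0.11 and did not pass. Irs1 and Nedd4 were also called with array 3 alone, at -2.38 and -0.76, and Insr was at -0.50 there, not past the threshold.

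The other partner calls were smaller. Notch1, a receptor to which Dlk1 is tied, fell (log2 -0.64, limma adjusted p = 0.00253), and Cdk2, a kinase that Cdkn1c inhibits, fell (log2 -0.36, limma adjusted p = 0.0209). Traf2, an adaptor that binds Peg3, rose (log2 0.59, limma adjusted p = 0.0154). Ccnd1, the cyclin D1 gene, was at 0.56 (limma adjusted p = 0.0406). Leaving out 1 array ended the call of Cdk2 (wild-type array 1, Pparg ldi/+ array 1 or 3, at -0.30 to -0.39), of Traf2 (Pparg ldi/+ array 1 or 2, at 0.55 and 0.51) and of Ccnd1 (wild-type array 1 or 3, Pparg ldi/+ array 1 or 2, at 0.43 to 0.53). None of these calls was kept with array 3 alone (0 of 4), where Notch1 was at -0.60, Cdk2 at -0.48, Traf2 at 0.37 and Ccnd1 at 0.23. For Sox9, which acts downstream of Dlk1 in preadipocytes, and Siah1a, a ubiquitin ligase that works with Peg3, the call depended on the probe set. Sox9 was at 0.79 (limma adjusted p = 0.0397) in the probe set read and at 0.18 and 0.03 in the others, and Siah1a was at -0.52 (limma adjusted p = 0.0426), with other probe sets at -0.51 and 0.02. With array 3 alone they were at -0.020 and -0.47, not past the threshold. Without wild-type array 1 Sox9 was at -0.18, without wild-type array 2 at 0.62 (limma adjusted p = 0.11), and without Pparg ldi/+ array 1 or 2 at 0.02 and 0.24. Siah1a was at 0.04 and -0.06 without wild-type array 2 or 3, and missed the threshold without any 1 Pparg ldi/+ array, at -0.40 to -0.61. In the Sox9 fits at -0.020, -0.18, 0.02 and 0.24, and the Siah1a fits at 0.04 and -0.06, another probe set had become the brightest. Without Pparg ldi/+ array 1 or 2, the calls over relatives and partners together went from 12 to 5 and 7.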

How the data were processed

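Fat RNA from 6 mice was measured on MOE430v2.0 arrays. What the authors deposited are probe set intensities on a linear scale; MAS5 is named for 2 of 6 samples per the submitters' processing notes. The sources used here state neither its version nor its target, and hold no detection calls. To make arrays comparable, the mean left after dropping the top and bottom 2% of an array's values was set to 500, and the log2 of the deposited intensity so scaled plus 32 was used. Of 45101 probe sets, 64 controls were left out; 34945 had a single symbol, 932 several and 9160 none. A gene was read from its brightest probe set, passing over x_at sets where another existed, and genes below the median of probe set means (log2 7.46) were not tested. The genotype test was that of limma 3.58.1 under R 4.3.3 (eBayes with an intensity trend, 2-sided, no covariates, Benjamini-Hochberg over 11201 genes, threshold 0.05). SE and intervals of single probe sets in the plot come from the same model over all probe sets. Precision is limited by having 3 arrays a group. The fit was tested on simulated data.

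The genes and all lists were chosen with earlier results of these data known. Named are the 9 genes, list genes past the threshold, neighbours that go against their gene, and Pparg; other list genes with values were named after their values were seen. Alternatives changed offset, scaling, filter, variance model, probe set rule, threshold, block and arrays. Promoters and gene order come from RefSeq tables of GRCm38.p6.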

Additional observations from a re-analysis of the deposited data

How the results depend on the processing

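Nnat, Peg3, Grb10, Plagl1, Cdkn1c, Pparg and Blcap kept direction and side of the threshold in every alternative that tested them. The 3668 calls over all genes became 2238 at an adjusted p under 0.01 and 1616 with Pparg ldi/+ array 3 alone, and lay between 2737 and 3346 with 1 array left out. The 7 calls among the 9 imprinted genes became 4 with the brighter 30% of probe sets, where 6 were tested, and were 6 to 7 with 1 array left out. The 4 neighbour calls became 2 at 0.01 and 2 with array 3 alone (3 to 4 with 1 array left out). The 7 calls among other imprinted genes became 3 with array 3 alone (5 to 7 with 1 array left out). The 12 calls among relatives and partners became 5 at 0.01 and 4 with array 3 alone, and were 5 to 10 with 1 array left out. Signs turned for Mest without wild-type array 3 (-0.16, with -0.16 to 0.42 over single arrays left out), Impact with the mean of its probe sets (-0.19), Sox9 without wild-type array 1 (-0.18, range -0.18 to 1.01) and with array 3 alone (-0.020), and Siah1a without wild-type array 2 (0.037, range -0.68 to 0.037). In those Sox9 and Siah1a fits another probe set had become the brightest. Mest has only 1 probe set, and the wild-type array 3 left out there held its lowest value, 4705. A fit of 1 array against 3 assumes that the lone array varies like the others and calls fewer genes. The replicate numbers of the titles were not taken as pairs, since they are not stated to mark litters. Deviations of same-numbered arrays from their group means correlated at -0.127, -0.0857 and -0.0945, and none correlated best with its own number. With 3 arrays a group, such correlations cannot show whether same-numbered mice were paired. With the number as a replicate block, 3166 of the 11201 genes tested were called. Among the 9 genes, 8 were called (Ndn passed). Called too were 4 of 21 neighbours, 5 of 21 other imprinted genes, and 8 of 27 relatives and partners. Without detection calls, dim signals could not be separated from background.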
